A study of Mus musculus with 6 samples.

Results

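Transcripts of 9 enzymes that make or interconvert asparagine, proline, glutamate, glutamine and the branched-chain amino acids were followed in a mouse acute myeloid leukaemia after withdrawal of its FLT3-ITD oncogene in the animal. The genes were chosen by symbol: Asns, Aldh18a1, Pycr1, Gpt2, Got1, Got2, Glul, Glud1 and Bcat1. All 9 had a row of their own among 53733 named rows of the count table, and 8 of them had enough reads to be tested, among 13652 rows tested in all. The line was made from murine foetal liver cells with retroviral vectors, MSCV-Luc2-IRES-MLL-AF9, which is expressed constantly, and TRE-tight-DsRED-IRES-FLT3-ITD, which needs doxycycline. NSG mice, which are immunodeficient, received the cells by the tail vein and stayed on doxycycline for 96 h. In the OFF group (3 mice), doxycycline was then removed for 48 h, so that the cells kept MLL-AF9 and lost the inducer of FLT3-ITD. In the ON group (3 mice), doxycycline was continued and the cells carried both oncogenes. The marrow was sorted for viable leukaemic cells, and 1 library per mouse was read at the 3' end of each mRNA. All 6 libraries come from 1 line, and the loss of doxycycline from the host and the loss of FLT3-ITD from the cells cannot be told apart in this design.

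Glutamate stands at the centre of these reactions. Transaminases move its amino group onto keto acids to form alanine, aspartate, serine and the branched-chain amino acids, and run in the other direction too. Asparagine synthetase takes an amide group from glutamine, proline is made from the carbon skeleton of glutamate, and glutamine synthetase joins ammonia to glutamate. Several of these genes, Asns above all, are known to be induced by ATF4, which drives transcription in the amino acid and integrated stress responses, and leukaemia cells are known for their dependence on asparagine and glutamine.

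The libraries held 8335234 to 9316361 counts in named rows, and a single count equalled 0.124 CPM or less (CPM, the usual count relative to the library's total, here the total scaled by TMM). The list of leukaemic myeloid genes had 10 members, of which 9 were tested, 5 were higher in OFF and 0 were lower. Its members Hoxa9, Elane and Mpo were at 333 to 361, 1598 to 1665 and 659 to 933 CPM in OFF. In ON they were at 324 to 335, 742 to 959 and 290 to 320 CPM. Kit, on the same list, was at or below 0.569 CPM in all 6 libraries. Among markers of other marrow cells, the summed erythroid genes stood at 577 to 933 CPM in OFF, against 150 to 212 CPM in ON, with 5 of 5 tested members higher. The mature neutrophil list stood at 3610, 5663 and 8335 CPM in OFF replicates 1 to 3, against 2458 to 2633 CPM in ON, with 8 of 9 members higher. The megakaryocyte sum was 54.9 to 63.8 CPM in OFF, against 32.3 to 37.0 CPM in ON. Nearly all of it was Gp1bb, at 54.0, 54.9 and 61.2 CPM in OFF, against 36.1, 35.8 and 32.0 CPM in ON. The other members of that list did not exceed 1.21 CPM in any library. B cell, T and NK cell, and stromal and endothelial sums did not exceed 12.3 CPM in any library. The B cell sum was 8.33 to 12.3 CPM in OFF, against 2.51 to 5.71 CPM in ON, with its 1 tested member, Ighm, higher. OFF replicates 1 to 3 lay at -21.4, -39.9 and -48.3 on the first principal component (67.6% of the variance), against 34.7 to 37.5 for ON, and OFF replicate 3 stood apart on the component that follows (-29.3, against 23.9 and 14.4). In bulk libraries, fewer cells of a type and less RNA per cell cannot be told apart. The mouse Flt3 row was at 5.44, 5.90 and 9.13 CPM in OFF, against 5.48, 5.81 and 5.71 CPM in ON; it reads the native gene at its 3' end and does not check the vector, which was not analysed here.

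After withdrawal, 6 of the 8 tested enzymes fell (Asns, Aldh18a1, Pycr1, Gpt2, Got1 and Got2), Glul rose, and Glud1 did not pass the test. The test was edgeR's quasi-likelihood test with Benjamini-Hochberg adjustment over all tested rows at 0.05. Adjusted p-values below come from it unless another test or setting is named. Over all rows tested, 34.8% were called, 17.5% as lower and 17.3% as higher. The 8 tested enzymes had a median log2 fold change (OFF minus ON) of -1.003, beside 0.00432 for all tested rows. In none of the 8 did OFF libraries overlap ON libraries: 7 were entirely lower, beside 24.5% of all tested rows, and 1 was entirely higher, beside 23.8% (48.3% in either direction). Summed over the 9 genes, the level was 213, 198 and 221 CPM in OFF, against 296, 305 and 289 CPM in ON.

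**Figure D1:**
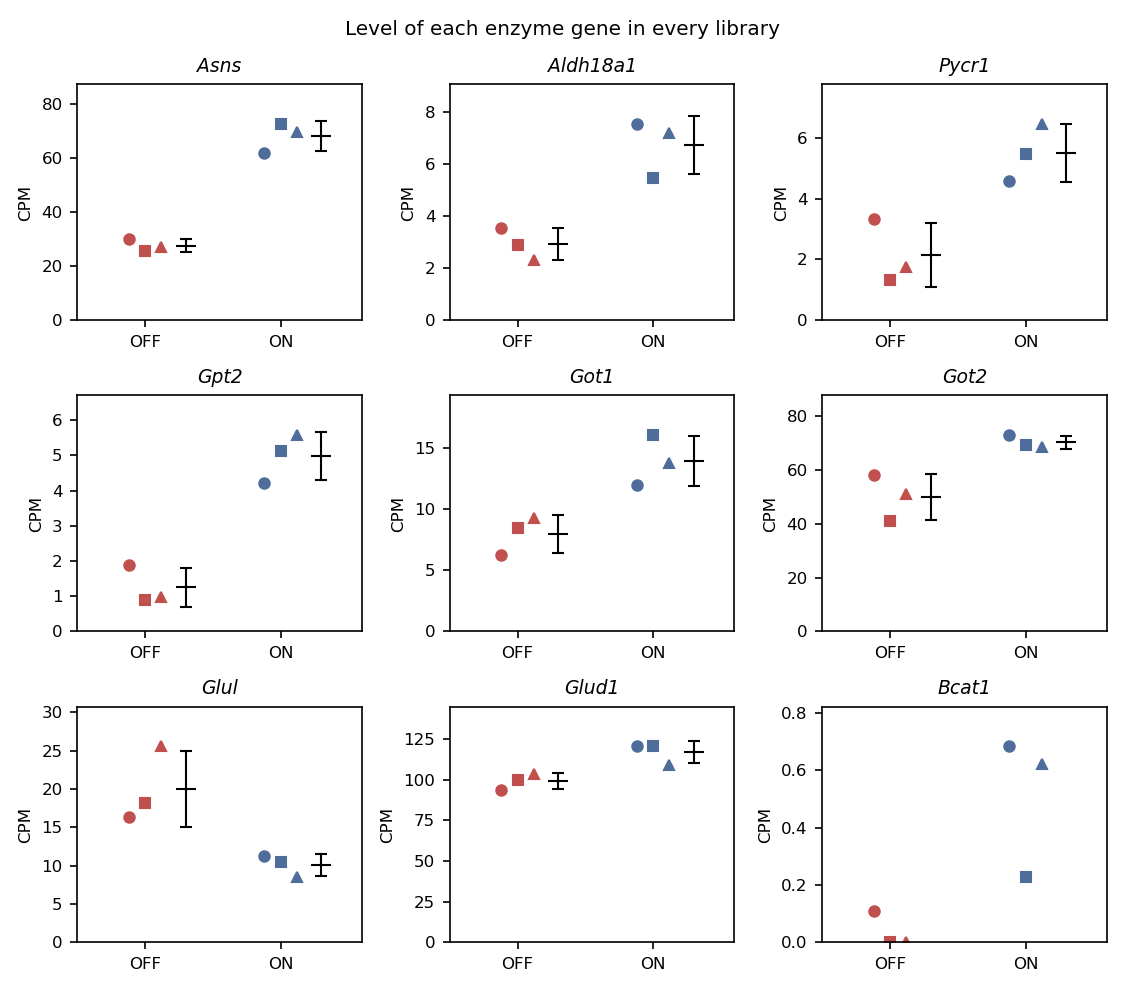
Level of each enzyme gene in CPM (vertical axes from 0, a scale of its own per gene) in the OFF and ON groups; circles, squares and triangles are replicates 1, 2 and 3 of a group, which do not pair across groups, and the bars at the right of each group are the mean and SD (n = 3; not drawn for Bcat1, which was not tested). Glul sits higher in all 3 OFF libraries, and the other 8 genes sit lower in OFF than in any ON library.

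Asparagine synthetase, encoded by Asns (GRCm38, chromosome 6, 7675169 to 7693254, minus strand), turns aspartate into asparagine with glutamine as the donor of nitrogen. Asns was at 30.2, 25.7 and 27.0 CPM in OFF replicates 1 to 3, against 61.9, 72.7 and 69.5 CPM in ON. The groups were far apart and the spread within each was small, with coefficients of variation of 8.38% and 8.13%. Asns fell 2.46-fold, to 27.6 ± 2.32 CPM in OFF, against 68.0 ± 5.53 CPM in ON (SD, n = 3 each; log2 fold change -1.30, SE 0.12, adjusted p = 2.51e-06). Only 3.2% of the rows tested had a more negative fold change. Asrgl1, which splits asparagine again, was at 12.6, 10.02 and 8.25 CPM in OFF, against 14.0, 14.2 and 13.6 CPM in ON (log2 fold change -0.44, adjusted p = 0.0526). Leaving out OFF replicate 1 brought it below the threshold (-0.61, adjusted p = 0.0073), as did omitting the filter on low counts (adjusted p = 0.046). The difference of log2 CPM between Asns and Asrgl1 was 1.42 ± 0.23 in OFF and 2.26 ± 0.12 in ON (SD, n = 3 each), a change of -0.84 with no overlap. An exact permutation test of 3 against 3 libraries gave p = 0.1, the smallest it can give (0.133 adjusted over 4 such pairs). Aspg, another asparaginase, was at a mean of 0.037 CPM in OFF and had no read in ON.

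The list of partners in asparagine and aspartate metabolism, Asrgl1 among them, gave 3 lower, 1 higher and 3 not called of 7 tested. The list median was -0.44, and over all tested rows 17.5% were called lower and 17.3% higher. Cad, whose protein joins aspartate to carbamoyl phosphate for pyrimidines, fell to 15.03 ± 1.71 CPM in OFF, against 31.4 ± 1.38 CPM in ON (SD, n = 3 each; log2 fold change -1.06, adjusted p = 2.94e-05). Adsl and Adss, purine enzymes of which Adss consumes aspartate, changed by -0.90 (adjusted p = 4.53e-04) and -0.46 (adjusted p = 0.0101). Nat8l, which makes N-acetylaspartate, was the member that rose, to 3.67, 3.45 and 4.18 CPM in OFF, against 1.83, 1.25 and 1.24 CPM in ON (1.37, adjusted p = 0.00272).

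Proline is made from glutamate by P5C synthase (Aldh18a1) and a P5C reductase (Pycr1 or, in the cytosol, Pycrl), P5C being the shared intermediate of proline synthesis and breakdown. Aldh18a1 (chromosome 19, 40550257 to 40588463, minus strand) was at 3.55, 2.90 and 2.31 CPM in OFF, against 7.54, 5.47 and 7.19 CPM in ON. These levels rest on 21 to 32 counts per OFF library and 48 to 66 per ON library, and they did not overlap. Aldh18a1 fell 2.30-fold (log2 fold change -1.20, SE 0.25, adjusted p = 0.00171). Pycr1, the mitochondrial reductase (chromosome 11, 120635712 to 120643769, minus strand), was at 3.33, 1.34 and 1.76 CPM in OFF, against 4.57, 5.47 and 6.45 CPM in ON. OFF replicate 1 was the highest of its group, and the coefficient of variation in OFF was 49.1%, against 17.1% in ON. Pycr1 fell 2.55-fold (log2 fold change -1.35, SE 0.32, adjusted p = 0.00405), or by -1.81 without OFF replicate 1.

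Pycrl, the cytosolic reductase of the same step, also fell (log2 fold change -0.45, adjusted p = 0.0415), with 12.4, 11.6 and 12.3 CPM in OFF, against 17.2, 13.1 and 19.5 CPM in ON. That call was lost by DESeq2, with a minimum of 10 CPM in 3 libraries, in the authors' log2 table, and without OFF replicate 2, ON replicate 1 or ON replicate 3 (adjusted p = 0.0515 to 0.211).

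Of the enzymes that break proline down, 1 rose and 1 was not called. Aldh4a1, which oxidises P5C back to glutamate, rose to 8.88, 9.47 and 9.24 CPM in OFF, against 6.17, 5.81 and 4.09 CPM in ON (log2 fold change 0.77, SE 0.20, adjusted p = 0.00715). The difference of log2 CPM between Aldh18a1 and Aldh4a1, the enzymes of opposed steps, was -1.60 ± 0.32 in OFF and 0.33 ± 0.43 in ON (SD, n = 3 each; change -1.93, exact permutation test, p = 0.1, 0.133 adjusted over 4 pairs). Prodh, the first enzyme of proline oxidation, gave -0.32 (adjusted p = 0.288) with overlapping groups. Oat, which feeds ornithine into P5C, was at 21.1 ± 3.81 CPM in OFF and 21.1 ± 2.82 CPM in ON (SD, n = 3 each; adjusted p = 0.989). Over the whole list of proline partners, 1 of 5 tested fell and 1 rose, with a median of -0.00369. These shares were near those of all tested rows, 17.5% lower and 17.3% higher.

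The start regions of the genes are shown because several of the falling enzymes share a short word there. The RefSeq table of promoters (GRCm38.p6, 250 bases before to 50 after each start) held 10 promoters for the 9 genes, and it was searched on both strands for TGATGNAA, the core of the composite elements bound by ATF4 with C/EBP factors, and for CACGTG, an E-box. These motifs do not overlap each other in the matches found. TGATGNAA was found in 3 of the 9 genes, Asns (23 to 16 bases before the start), Pycr1 (103 to 96 bases before) and Got1 (102 to 95 bases before, on the opposite strand), against 3.97% of all 32851 promoters and 2.34% of those of tested genes. All 3 were among the 6 that fell, which are most of the 9 genes. Several of these genes were already known to be induced by ATF4, so these counts are a description and no test of the motif. CACGTG was found in Aldh18a1 alone (59 to 54 bases before the start), against 7.15% of all promoters and 10.3% of those of tested genes. Gpt2, Got2, Glul, Glud1 and Bcat1 held neither in this window, and a match or its absence does not show whether a factor binds. The 150 bases before the start are given 5′ to 3′ on the strand of the gene for the 4 genes with a match and for Glul, the gene that rose, with matches in capitals, from chr6:7693210-7693359 (minus strand), chr11:120643749-120643898 (minus), chr19:43524606-43524755 (minus), chr19:40588464-40588613 (minus) and chr1:153899779-153899928 (plus).
Asns: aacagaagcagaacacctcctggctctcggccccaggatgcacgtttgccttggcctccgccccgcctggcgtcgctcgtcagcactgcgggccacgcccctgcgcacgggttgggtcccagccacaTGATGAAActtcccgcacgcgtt
Pycr1: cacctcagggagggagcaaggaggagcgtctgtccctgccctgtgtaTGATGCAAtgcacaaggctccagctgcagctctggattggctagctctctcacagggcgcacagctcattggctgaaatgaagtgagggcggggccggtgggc
Got1: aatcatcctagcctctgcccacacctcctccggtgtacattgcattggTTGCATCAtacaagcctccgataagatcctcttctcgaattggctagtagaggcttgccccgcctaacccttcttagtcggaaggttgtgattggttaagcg
Aldh18a1: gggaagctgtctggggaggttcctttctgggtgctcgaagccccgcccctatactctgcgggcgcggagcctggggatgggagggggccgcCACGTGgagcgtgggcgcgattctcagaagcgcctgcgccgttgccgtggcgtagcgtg
Glul: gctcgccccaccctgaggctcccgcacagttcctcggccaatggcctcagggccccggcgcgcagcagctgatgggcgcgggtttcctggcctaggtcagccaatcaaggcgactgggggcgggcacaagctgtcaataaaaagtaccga

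Of the regulators known for these genes, Atf4 itself was at 140, 128 and 112 CPM in OFF, against 365, 307 and 348 CPM in ON (log2 fold change -1.43), and Myc, which binds E-boxes, at 7.11, 7.02 and 8.25 CPM in OFF, against 20.7, 20.2 and 26.0 CPM in ON (-1.58). Ddit3, an ATF4 target of the stress response, gave -0.28 (adjusted p = 0.0898). The 5 rows whose profile over the 6 libraries lay nearest to that of Asns, among 8060 other rows with a mean of at least 10 CPM, were Amd2, Amd1, Amd-ps3, Nol10 and Snhg3, at Euclidean distances of 0.115, 0.131, 0.146, 0.159 and 0.162 in centred log2 CPM. Amd1 encodes a decarboxylase of polyamine synthesis, and Amd2 and Amd-ps3 are near-identical copies of it whose reads may not be separable, so these 3 rows count as 1 gene. Nol10 encodes a nucleolar protein. The likeness is a description over 6 libraries in 2 groups and reflects the difference between the groups above all.

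Alanine aminotransferase 2, encoded by Gpt2 (chromosome 8, 85492576 to 85527560, plus strand), moves the amino group of glutamate to pyruvate in mitochondria. Gpt2 was at 1.89, 0.891 and 0.99 CPM in OFF, against 4.23, 5.13 and 5.58 CPM in ON, from 17, 8 and 9 counts in OFF and 37, 45 and 45 counts in ON. The groups did not overlap, and OFF replicate 1 was again the highest of its group. OFF replicates 2 and 3 were under the minimum count of 10, so Gpt2 passed the filter on low counts through the ON libraries. Its call, its rank and its difference from Gpt rest on a row kept by the group where it was high. Gpt2 fell 3.92-fold, the largest change among the 8 tested enzymes (log2 fold change -1.97, SE 0.33, adjusted p = 3.28e-04). Only 1.06% of all tested rows had a more negative value. Its cytosolic isozyme Gpt was at 3.33, 3.12 and 4.18 CPM in OFF, against 2.28, 3.417 and 2.36 CPM in ON (0.40, adjusted p = 0.303), with overlapping groups. The difference of log2 CPM between Gpt2 and Gpt was -1.40 ± 0.58 in OFF and 0.85 ± 0.31 in ON (SD, n = 3 each), with no overlap (change -2.25, exact permutation test, p = 0.1, 0.133 adjusted over 4 pairs).

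Aspartate aminotransferases exchange the amino group between glutamate and oxaloacetate, Got1 in the cytosol and Got2 in mitochondria, and together they serve the malate-aspartate shuttle, which carries reducing equivalents into mitochondria. Got1 (chromosome 19, 43499752 to 43524605, minus strand) was at 6.22, 8.46 and 9.24 CPM in OFF, against 11.99, 16.1 and 13.8 CPM in ON. The groups did not overlap, and OFF replicate 1 was here the lowest, unlike for Asns, Aldh18a1, Pycr1, Gpt2 and Got2. Got1 fell 1.75-fold (log2 fold change -0.80, SE 0.18, adjusted p = 0.00347). Got2 (chromosome 8, 95864134 to 95888547, minus strand) was at 58.0, 41.0 and 50.9 CPM in OFF, against 73.0, 69.1 and 68.6 CPM in ON. It fell 1.41-fold (log2 fold change -0.49, SE 0.13, adjusted p = 0.00747), the smallest of the 7 called changes among these enzymes, and its spread was wider in OFF (coefficient of variation 17.1%) than in ON (3.4%). Got2 shares 434 exonic bases with Gm45760 on the opposite strand, 6680 bases from its 3' end, and that row held 7 to 18 counts per library, against 368 to 639 for Got2. Got1 and Got2 did not move apart beyond the spread, with a difference of log2 CPM of -2.62 ± 0.49 in OFF and -2.32 ± 0.25 in ON (SD, n = 3 each; exact permutation test, p = 0.5).

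The other parts of the shuttle changed in both directions. Of 5 partners tested, 3 rose and 1 fell, with a median of 0.53. Of all tested rows, 17.3% were called higher and 17.5% lower. The cytosolic malate dehydrogenase Mdh1 rose to 55.0, 51.5 and 61.9 CPM in OFF, against 38.4, 37.4 and 32.3 CPM in ON (log2 fold change 0.64, SE 0.12, adjusted p = 7.99e-04). The mitochondrial Mdh2, also an enzyme of the TCA cycle, fell to 153, 125 and 144 CPM in OFF, against 216, 217 and 223 CPM in ON (-0.63, SE 0.11, adjusted p = 4.02e-04). Both dehydrogenases changed by a similar factor, in opposite directions. The carriers Slc25a11 (oxoglutarate and malate) and Slc25a12 (aspartate and glutamate) rose by 0.64 and 0.53 (adjusted p = 0.00118 and 0.00199), whereas Slc25a13, the other aspartate-glutamate carrier, was at 70.5 ± 3.44 CPM in OFF and 66.3 ± 7.35 CPM in ON (SD, n = 3 each; adjusted p = 0.581).

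**Figure D2:**
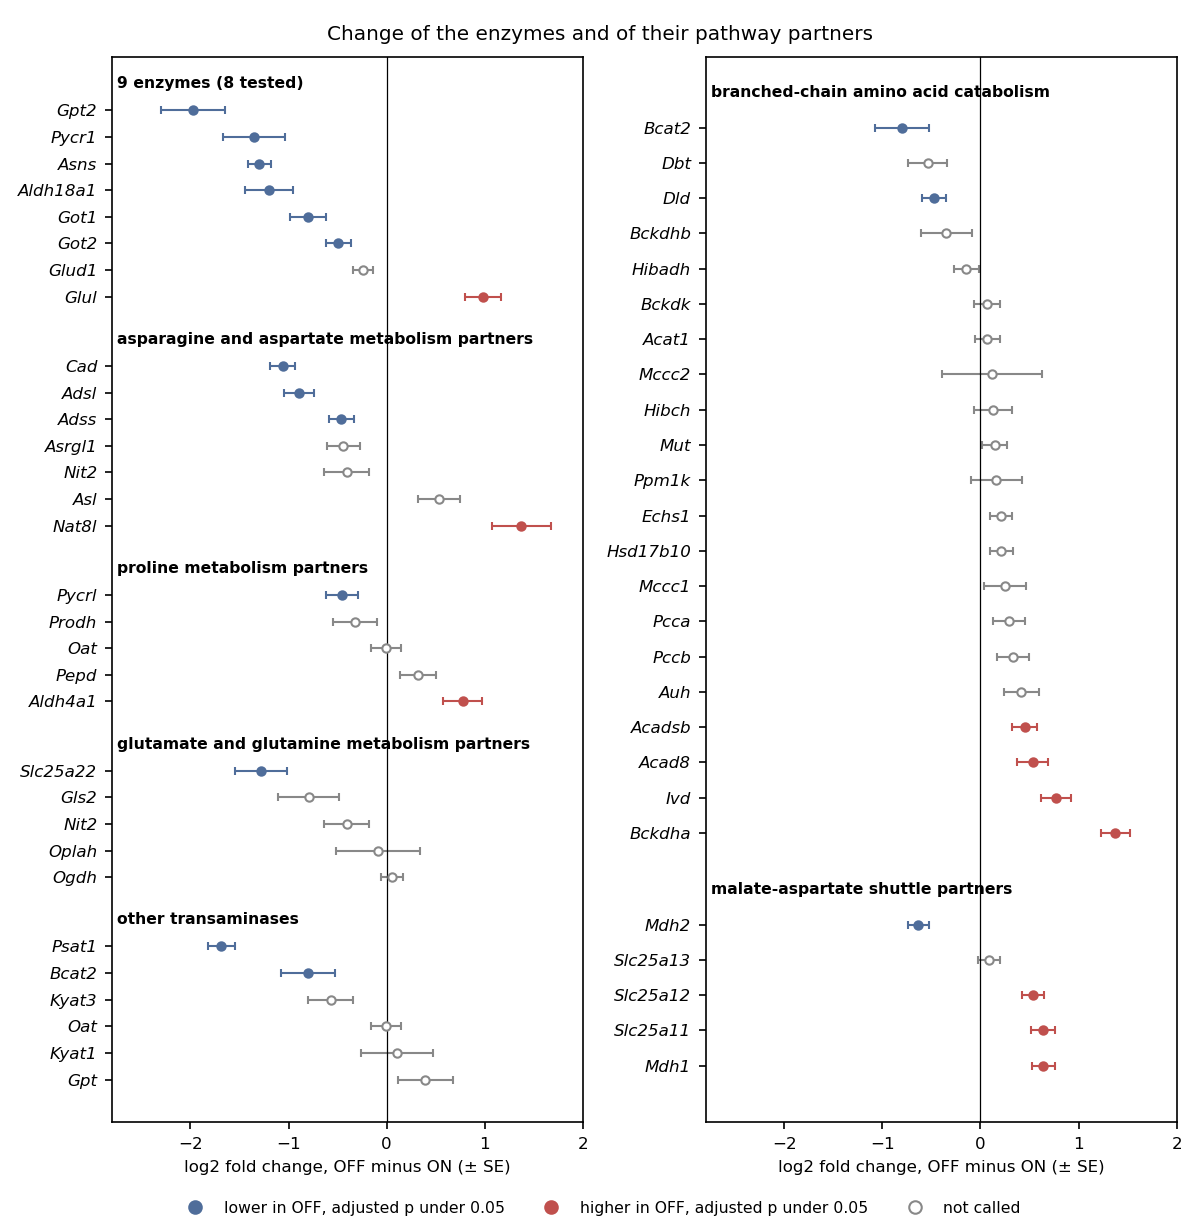
Log2 fold change (OFF minus ON, horizontal axis, with its SE) of the 8 tested enzymes and of the tested genes of 6 lists of pathway partners; filled points passed an adjusted p of 0.05 and open points did not, and a gene on several lists is drawn in each. Of the 8 enzymes, 6 lie left of 0 as filled points and Glul right of it, while 3 of 5 malate-aspartate shuttle partners lie right of 0 as filled points.

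Glutamine synthetase, encoded by Glul (chromosome 1, 153899944 to 153909723, plus strand), joins ammonia to glutamate. Glul was at 16.3, 18.2 and 25.6 CPM in OFF, against 11.3, 10.5 and 8.56 CPM in ON. All 3 OFF libraries were above the highest ON library, and OFF replicate 3 was the highest of all. Glul rose 1.98-fold (log2 fold change 0.98, SE 0.18, adjusted p = 8.17e-04), with 94.3% of tested rows below its value, and by 0.77 without OFF replicate 3 (adjusted p = 6.01e-04). The OFF libraries stood in the same order for Glul as for the summed mature neutrophil markers given above. Camp made up most of that sum, and Lcn2 and Cxcr2 alone on that list did not follow the order. Got1 and Glud1, which sat lower in OFF, followed it too. Adgre1, a macrophage marker, was at 11.0, 14.4 and 23.3 CPM in OFF, against 3.20, 5.01 and 3.97 CPM in ON. Of the whole macrophage list, 3 of 4 tested members rose and Vcam1 fell. Its sum was 66.5 to 94.8 CPM in OFF, against 63.9 to 71.2 CPM in ON, and the complement genes C1qa, C1qb and C1qc were at or below 0.333 CPM in all 6 libraries and Cd5l was at 0. The part of other or more mature cells in the rise of Glul was not tested.

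Slc25a22, a mitochondrial glutamate carrier, fell to 2.44, 2.56 and 3.52 CPM in OFF, against 6.62, 8.77 and 5.33 CPM in ON (log2 fold change -1.28, adjusted p = 0.00155). It was the gene called among 5 tested glutamate and glutamine partners, of which the other 4 were not called. The list median was -0.41, and 17.5% of all tested rows were called lower.

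Glutamate dehydrogenase, encoded by Glud1 (chromosome 14, 34310727 to 34345265, plus strand), releases the amino group of glutamate as ammonia and was the most abundant of the 9 transcripts in CPM. Glud1 was at 93.7, 99.6 and 104 CPM in OFF, against 121, 121 and 109 CPM in ON. The groups did not overlap, but their difference of 1.18-fold was small and did not pass (log2 fold change -0.24, SE 0.10, unadjusted p = 0.0362, adjusted p = 0.0893, edgeR). It passed without OFF replicate 3 (-0.27, adjusted p = 0.0247).

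**Figure D3:**
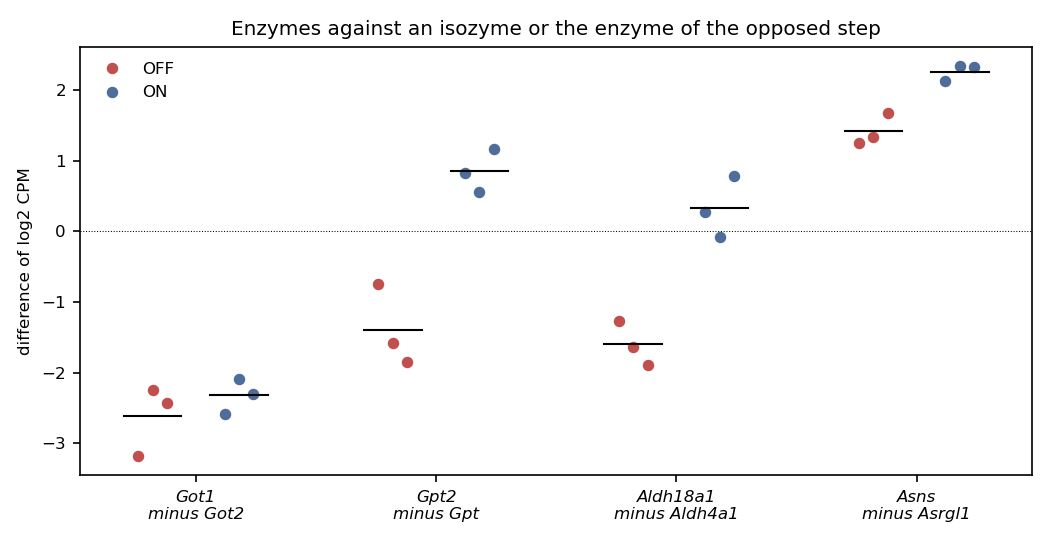
Difference of log2 CPM (vertical axis, prior count 2) between an enzyme gene and an isozyme (Got2, Gpt) or the enzyme of an opposed step (Aldh4a1, Asrgl1), with 1 point per library and the group mean as a line, OFF left of ON in each pair. OFF and ON overlap for Got1 with Got2, and they do not for the other 3 pairs; only the shift between groups is read, since levels of different genes are not comparable here.

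Branched-chain aminotransferase 1, encoded by Bcat1 (chromosome 6, 144993835 to 145076184, minus strand), transfers the amino group of leucine, isoleucine and valine in the cytosol and is known for its role in myeloid leukaemia. Its row held 1, 0 and 0 counts in OFF, against 6, 2 and 5 counts in ON, which was too few to pass the filter. With no filter on low counts, the row was called lower (edgeR, adjusted p = 0.0303). In that fit, Asns had an adjusted p of 1.93e-21, against 2.51e-06 with the filter, and Glud1 had 0.130, against 0.0893. Calls of that fit are therefore not on the same footing as those above. The Bcat1 sum was 1 count in OFF and 13 counts in ON, a ratio of 0.0727 with an exact interval of 0.00171 to 0.484 (95%, counting error only, with reads taken as independent). Bcat2, the mitochondrial isozyme, was at 2.33, 3.68 and 2.42 CPM in OFF, against 3.77, 5.47 and 5.46 CPM in ON (log2 fold change -0.80, SE 0.28, adjusted p = 0.0355). Its call was lost by DESeq2 and without OFF replicate 1, OFF replicate 3, ON replicate 2 or ON replicate 3 (adjusted p = 0.0638 to 0.137).

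Of 21 tested genes of branched-chain amino acid breakdown, 4 rose and 2 fell, with a median of 0.16. Over all tested rows 17.3% were called higher, a share near that of this list, and 17.5% were called lower. Bckdha, a subunit of the dehydrogenase that commits the keto acids to breakdown, rose to 22.8, 28.3 and 28.8 CPM in OFF, against 10.2, 11.3 and 9.30 CPM in ON (log2 fold change 1.37, SE 0.15, adjusted p = 1.06e-05). Ivd, of the leucine branch, rose by 0.77 (adjusted p = 0.00125), and Acadsb, of the isoleucine branch, by 0.45 (adjusted p = 0.0146). Acad8, of the valine branch, named here to complete the count after its value was seen, rose by 0.53 (adjusted p = 0.0177). The call of Acadsb was lost without OFF replicate 2, ON replicate 2 or ON replicate 3 (adjusted p = 0.0726 to 0.0839), and that of Acad8 without OFF replicate 2 or any 1 of the ON libraries (0.0511 to 0.0724). The members that fell were Bcat2 and Dld. Dld encodes a subunit shared with other dehydrogenase complexes (log2 fold change -0.47, adjusted p = 0.00848, or 0.0544 without ON replicate 3).

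Among the other transaminases, 2 of 6 tested fell, beside 17.5% of all tested rows, with a list median of -0.29. Besides Bcat2, these were Psat1, the aminotransferase of serine synthesis, which uses glutamate as the amino donor and fell to 47.2, 32.4 and 34.4 CPM in OFF, against 117, 123 and 126 CPM in ON (log2 fold change -1.68). Its OFF libraries stood in the same way as those of Gpt2 and Asns, with replicate 1 the highest. Across the 8 tested enzymes, OFF replicate 1 held the highest value of its group in 5 genes and the lowest in 3, while OFF replicate 2 was the highest in none. Over all 6 lists of partners, 46 genes outside the 9 were tested, of which 9 fell and 9 rose, with a median of 0.10. Both shares were near those of all tested rows, 17.5% lower and 17.3% higher.

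**Figure D4:**
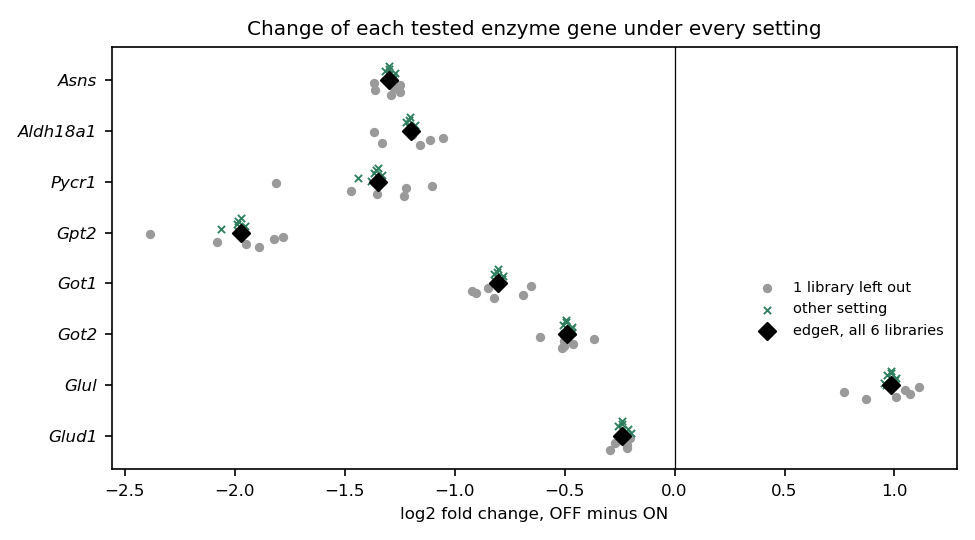
Log2 fold change (OFF minus ON, horizontal axis) of each tested enzyme gene by edgeR with all 6 libraries (diamonds), with 1 library left out (dots) and under the other settings (crosses); points of a gene are spread vertically for legibility. Every value lies on the same side of 0 as its diamond, and the widest range is that of Pycr1, between -1.81 and -1.10.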

How the data were processed

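RNA of leukaemic cells sorted from 6 mice was sequenced from 3' ends (QuantSeq kit of Lexogen, per the labels' protocols); groups and replicate numbers come from the sample titles. Per the submitters' processing notes, the processing named HISAT2 2.0.4 and build mm10, featureCounts from Subread 1.6.3, cutadapt 1.9.1, bcl2fastq 2.17.1.14 and FastQC 0.11.6, then limma 3.42.2 under R 3.6.1. The annotation, strand setting and handling of reads with several matches are not given in the sources. The deposited counts are whole numbers per gene row. The authors' deposited log2 values for 12287 genes, nearly equal in their quartiles, served as an alternative only.

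The 1105 rows without a name (0.145% to 0.172% of counts) were left out. In edgeR 4.0.16 under R 4.3.3, filterByExpr kept rows (minimum count 10, minimum total 15), which were scaled by TMM and fitted by glmQLFit (robust) and glmQLFTest, OFF against ON, with no covariate. The SE is the size of the fold change divided by the square root of F. On simulated data of 13652 rows for this comparison, edgeR called 97% of changes of 1 log2 unit and 100% of 2 units. These changes were placed only in rows above a set mean level, and all other rows were left unchanged. Gpt2, Pycr1 and Aldh18a1 lie below that level, so these rates do not cover them. Alternatives used DESeq2 1.42.0 and limma 3.58.1. Values of pairs are log2 CPM with a prior count of 2. Pairs of replicates exceeded sampling noise, at 2.98 to 39.5 for chi-square over its degrees of freedom. The values were 6.87, 39.5 and 27.9 for OFF pairs (replicates 1 and 2, 1 and 3, 2 and 3), against 2.98, 7.30 and 9.28 for ON pairs. The simulation gave each row 1 spread for both groups, so its rates do not cover this difference. Gene positions are from GENCODE M21 (GRCm38), where all 9 symbols matched; promoters are from RefSeq. Labels do not say whether replicate mice were handled separately before the sort. The rule for named genes took the 9 enzymes, at most 3 called genes per direction with the smallest p in each list, and isozymes or opposed enzymes. Some genes of the lists are not reported here, and lists and pairs were counted without them. The enzymes and lists were chosen with earlier results of these data known.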

Additional observations from a re-analysis of the deposited data

How the results depend on the processing

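The 8 tested enzymes kept their direction in each of the 7 alternative settings and 6 single-library omissions that gave them a value, and the 7 calls were kept in all of these; only Glud1 crossed the threshold. With a minimum of 10 CPM in 3 libraries, 3 enzymes instead of 6 were called lower, because 5 of them were then tested; Bcat1 gave a value and made 7 calls lower, with no filter only. In the partner lists, which have few members, the same filter gave 0 instead of 1 higher for aspartate. It gave 0 instead of 1 lower and 0 instead of 1 higher for proline, and 0 instead of 1 lower for glutamate. For other transaminases and branched-chain breakdown it gave 1 instead of 2 lower. Nat8l, Aldh4a1, Slc25a22 and Bcat2 were then no longer tested, whereas Pycrl was tested and not called. No filter gave 2 higher for aspartate, DESeq2 gave 0 lower for proline and 1 for other transaminases and for branched-chain breakdown, and the authors' log2 table gave 0 lower for proline and 2 for glutamate. Leaving out single libraries gave 1 to 2 higher for aspartate, 0 to 1 lower for proline, and 1 to 2 lower for glutamate and for other transaminases. For branched-chain breakdown it gave 0 to 3 lower and 2 to 4 higher. Apart from the genes no longer tested, the cause of these shifts was not tested.

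Leaving out single libraries gave 6 to 7 enzymes lower and 1 higher. Over all rows, 2390 were lower and 2356 higher, and single-library omissions gave 1678 to 2740 lower and 1615 to 2704 higher. Replicate numbers did not pair the libraries: deviations from group means correlated at 0.0348, -0.0759 and -0.0504 for equal numbers, and libraries did not all correlate best with their own number. A replicate block gave 2230 lower and 2173 higher, with 6 enzymes lower and 1 higher as without it. The 4 pairs kept their direction with a prior count of 0.5 and on leaving out each library. Depth limits Gpt2, Pycr1 and Aldh18a1, at 8 to 66 counts per library, and Bcat1 above all.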
